A study of Phaseolus vulgaris with 6 samples.

Results

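This account covers 7 ZIP metal transporter genes of common bean (Phaseolus vulgaris), chosen by identifier among the 19598 genes of the deposited expression table. They are PvZIP1 (Phvul.001G035800), PvZIP7 (Phvul.005G146000), PvZIP8 (Phvul.005G048900), PvZIP9 (Phvul.005G149800), PvZIP12 (Phvul.006G003300), PvZIP13 (Phvul.006G070200) and PvZIP16 (Phvul.008G259200). Each of the 7 has a single row, so the balance described is that between related genes and not between transcripts of 1 gene. RNA was sequenced from whole developing pods of the navy beans Voyager and Albion, 3 samples of each, every sample being a pair of pods from 1 greenhouse pot ground together. The labels give a normal zinc concentration for Voyager and a low one for Albion, yet describe both as grown with enough zinc, and the heading of the table names a high zinc treatment. In the study's methods the plants of both genotypes received the same nutrient solution, which contained zinc. The labels put the pods at 20 days after anthesis, while the study's methods give an earlier age. The table holds 1 FPKM value (sequenced fragments, scaled for transcript length and library size) per gene and genotype, made by the authors from the 3 samples. FPKM corrects for gene length, so levels of different genes can be set side by side. The pooled values carry no spread between samples and no depth, so no test of the genotypes was run on them and every difference below is a description.

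ZIP proteins move zinc, and in some cases iron or other divalent metals, into the cytosol from outside the cell or from inside an organelle. In A. thaliana the transcription factors bZIP19 and bZIP23 sense zinc and switch on several ZIP genes when it is short, among them ZIP4 and ZIP5. In a pod, zinc arrives in the phloem, and because the embryo has no vascular link with the mother plant, metals must pass through membrane transporters to reach it.

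By its A. thaliana annotation PvZIP12 is a ZIP5 gene, PvZIP1 a ZIP4 gene, PvZIP8 a ZIP1 gene and PvZIP7 a ZIP11 gene, while PvZIP13 and PvZIP16 are both ZIP6 genes. PvZIP9 is annotated as ZTP29, which in A. thaliana is a zinc transporter of the endoplasmic reticulum. On the v1.0 genome of the table, PvZIP1 lies on chromosome 1 from 3438922 to 3443211, and PvZIP8 on chromosome 5 from 5642976 to 5645134. On the same chromosome PvZIP7 spans 37429894 to 37431905 and PvZIP9 spans 37714954 to 37719303, with 283 kb between them. PvZIP12 lies near the start of chromosome 6, from 1040877 to 1043253, and PvZIP13 on that chromosome from 18953200 to 18954796. PvZIP16 lies on chromosome 8 from 57181379 to 57183797. No member overlaps another listed gene.

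The study lists primer pairs for RT-qPCR of several ZIP genes, and the pairs for PvZIP12, PvZIP8 and PvZIP13 are shown. They were not matched to sequences here, so which transcripts they amplify was not checked. The primers are given from the 5′ to the 3′ end.
PvZIP12 forward: gggcagaggcaagtgcaggg
PvZIP12 reverse: gggcgtgatggagatgcagga
PvZIP8 forward: ggtgttgctgttgcacttcc
PvZIP8 reverse: gcgaagccagaaagtgttgc
PvZIP13 forward: cgcgctcttcgattgccaggt
PvZIP13 reverse: ccaccggcgtgtagtgcgta

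PvZIP12 differed most between the genotypes. It had 7.90 FPKM in Voyager pods and 1.66 FPKM in Albion pods, a plain ratio of 4.76. On the scale of log2(FPKM + 1), which holds down ratios of low values, the difference of Voyager minus Albion was 1.74, or 3.35-fold. Among the 19598 listed genes PvZIP12 stood at place 147 by this ratio, and 0.750% of the genes had a ratio at least as high. By level, PvZIP12 stood above 39.4% of the listed genes in Voyager and above 12.7% in Albion, at rank 11877 in Voyager and rank 17097 in Albion. Its level was below the median of the listed genes in both genotypes, which was 11.7 FPKM in Voyager and 11.1 FPKM in Albion.

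A gene was called different when its FPKM + 1 differed at least 2-fold, since no test was run on the pooled values. PvZIP12 was the only member past this fold, and no member was at least 2-fold lower in Voyager. Over all listed genes, 2.55% were at least 2-fold higher in Voyager and 1.76% at least 2-fold lower, so a count of 1 of 7 rests on a single gene. Levels like those of PvZIP12 were also found elsewhere in the table. The nearest gene to it by Euclidean distance on log2(FPKM + 1) over the 2 genotype values was a calcium-binding EF-hand gene (Phvul.002G019300), with 7.70 FPKM in Voyager and 1.66 FPKM in Albion at a distance of 0.033. A basic secretory protein gene (Phvul.007G040900) followed, with 7.71 FPKM in Voyager and 1.47 FPKM in Albion. Next was SSL4 (Phvul.009G226600), a strictosidine synthase-like gene, with 8.08 FPKM in Voyager and 1.94 FPKM in Albion. Likeness over 2 values is a description of levels only.

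**Figure D1:**
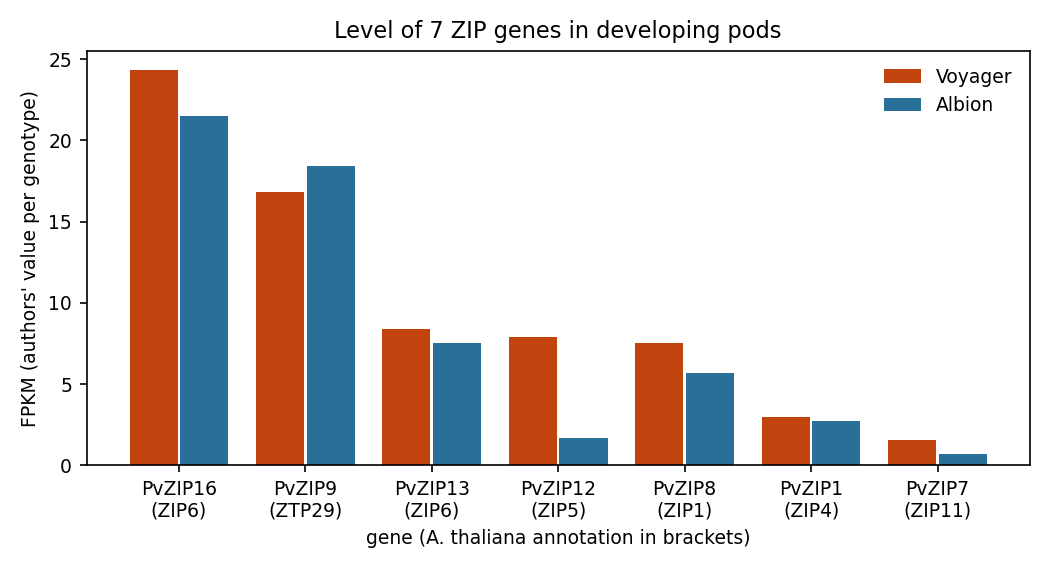
FPKM of the 7 ZIP genes (vertical axis, linear from 0) in Voyager (left bar of each pair) and Albion (right bar), with genes ordered by their level in Voyager. Each bar is 1 pooled value with no error, PvZIP16 and PvZIP9 are the highest in both genotypes, and PvZIP12 has 7.90 FPKM in Voyager and 1.66 FPKM in Albion.

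PvZIP8 and PvZIP1 were closer in level between the genotypes. PvZIP8, the ZIP1 gene, had 7.55 FPKM in Voyager and 5.71 FPKM in Albion, a log2 difference of 0.35, and its rank was 12085 in Voyager and 13168 in Albion. PvZIP1, the ZIP4 gene, had 2.98 FPKM in Voyager and 2.74 FPKM in Albion, with a log2 difference of 0.09. PvZIP1 had nearly the same place in both, at rank 15729 in Voyager and 15724 in Albion, above 19.7% of the listed genes in each. So of the members annotated as ZIP5 and ZIP4, which in A. thaliana share their zinc regulators, PvZIP12 was 3.35-fold and PvZIP1 1.06-fold higher in Voyager on the FPKM + 1 scale.

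PvZIP7, the ZIP11 gene, had the lowest level of the 7 in both genotypes, with 1.57 FPKM in Voyager and 0.69 FPKM in Albion. Its plain ratio of 2.28 was next to that of PvZIP12 among the members, but on the FPKM + 1 scale it was 1.52-fold, a log2 difference of 0.60 and under the 2-fold limit. PvZIP7 stood above 10.6% of the listed genes in Voyager and above 3.12% in Albion. With 0.1 FPKM added in place of 1, its log2 difference was 1.08, so that 2 of 7 members were at least 2-fold higher in Voyager beside 4.5% of all listed genes, and none was 2-fold lower beside 2.92%. At a 1.5-fold limit on the FPKM + 1 scale PvZIP7 again joined PvZIP12, beside 6.95% of all genes higher in Voyager, and none of the members was lower, beside 4.25%. The call of PvZIP7 thus depends on the pseudocount and on the limit.

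PvZIP16, PvZIP13 and PvZIP9 had the 3 highest levels in both genotypes. PvZIP16, a ZIP6 gene, had 24.3 FPKM in Voyager and 21.5 FPKM in Albion, above 70.2% of the listed genes in Voyager and 68.1% in Albion, a log2 difference of 0.17. PvZIP13, the other ZIP6 gene, had 8.42 FPKM in Voyager and 7.50 FPKM in Albion, a log2 difference of 0.15. PvZIP9, the ZTP29 gene, was the only member with the lower value in Voyager. It had 16.9 FPKM in Voyager and 18.4 FPKM in Albion, a log2 difference of -0.12, and its rank was 7795 in Voyager and 7043 in Albion. Of the 7 members, PvZIP16 and PvZIP9 were above the median of the listed genes in both genotypes and the other 5 were below it.

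Ordered by level, the members ran PvZIP16, PvZIP9, PvZIP13, PvZIP12, PvZIP8, PvZIP1 and PvZIP7 in Voyager. In Albion they ran PvZIP16, PvZIP9, PvZIP13, PvZIP8, PvZIP1, PvZIP12 and PvZIP7. PvZIP16, PvZIP9, PvZIP13 and PvZIP7 were thus in the same places, and PvZIP12 was below PvZIP8 and PvZIP1 in Albion but above both in Voyager. PvZIP13, PvZIP12 and PvZIP8 lay within 1 FPKM of each other in Voyager, and without a spread between samples their order there is not established. From the highest to the lowest member the range was 15.5-fold in Voyager and 31.1-fold in Albion.

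The 7 members together had 69.6 FPKM in Voyager and 58.2 FPKM in Albion, or 0.00732% of the summed FPKM of the table in Voyager and 0.0070% in Albion. The log2 ratio of these sums was 0.26. PvZIP12 alone was 6.24 FPKM higher in Voyager, and without it the other 6 members summed to 61.7 FPKM in Voyager and 56.5 FPKM in Albion, a ratio of 1.09. PvZIP12 made up 11.4% of the members' sum in Voyager and 2.85% in Albion. PvZIP16 made up 34.9% in Voyager and 36.9% in Albion, and PvZIP9 made up 24.2% in Voyager and 31.6% in Albion. These most abundant members together were at 41.2 FPKM in Voyager and 39.9 FPKM in Albion. PvZIP13 held 12.1% in Voyager and 12.9% in Albion, PvZIP8 held 10.9% in Voyager and 9.82% in Albion, PvZIP1 held 4.28% in Voyager and 4.71% in Albion, and PvZIP7 held 2.26% in Voyager and 1.19% in Albion.

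A higher value in Voyager was found for 6 of the 7 members, beside 61.9% of all listed genes. The median log2 difference was 0.17 over the members and 0.07 over all listed genes. When both genotypes were scaled to the same summed FPKM, which moved the median of all genes to -0.11, only PvZIP12, PvZIP7 and PvZIP8 still had the higher value in Voyager, and the log2 difference was -0.05 for PvZIP1, -0.02 for PvZIP13 and -0.01 for PvZIP16. Under this scaling 33.4% of all listed genes were higher in Voyager. Scaled to the same upper quartile or the same median, 48.9% and 49.2% of all genes were higher in Voyager, and the count of members was 6 in both cases. The direction of PvZIP1, PvZIP13 and PvZIP16 therefore depends on the scaling, and that of PvZIP12, PvZIP7, PvZIP8 and PvZIP9 did not in the 3 scalings tried.

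**Figure D2:**
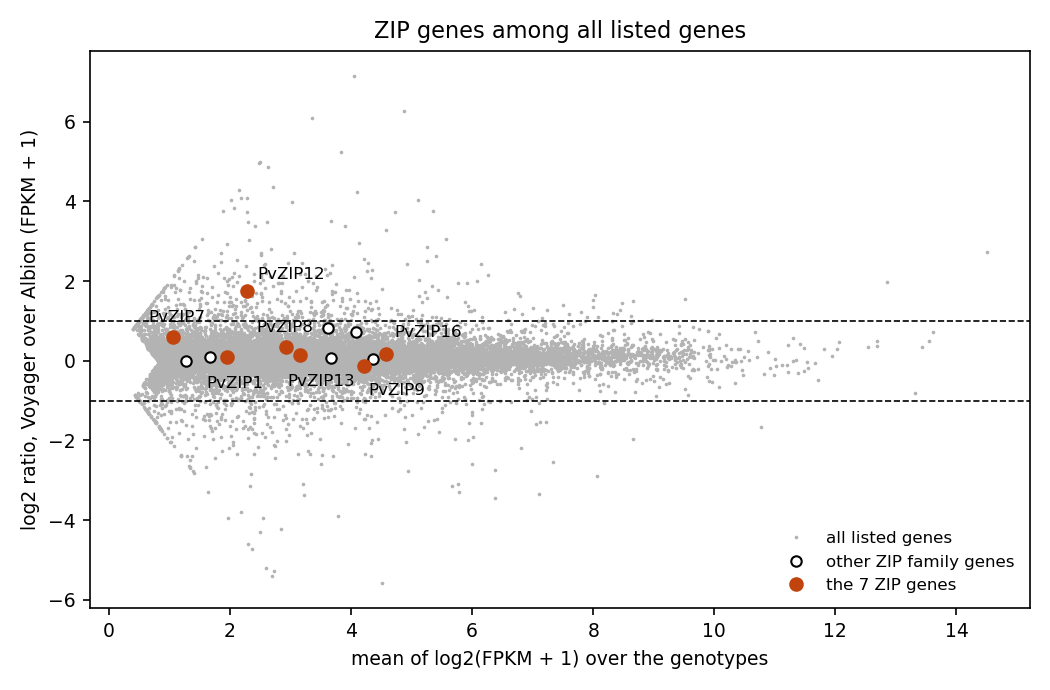
Log2 ratio of Voyager over Albion on the FPKM + 1 scale (vertical axis) against the mean log2(FPKM + 1) over the genotypes (horizontal axis), with grey points for all 19598 listed genes, filled points for the 7 ZIP genes and open points for the other 6 ZIP family genes. Dashed lines mark 2-fold, and PvZIP12 is the only filled or open point beyond them, at 1.74.

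Beside the 7 members, 6 further genes of the table carry a ZIP transporter annotation, and other ZIP genes of the bean genome were not analysed here. The 13 ZIP genes of the table summed to 141 FPKM in Voyager and 113 FPKM in Albion. The 6 other genes had 1.42 to 20.7 FPKM in Voyager and 1.41 to 19.4 FPKM in Albion, and their log2 differences ran from 0.01 to 0.83 with a median of 0.08, so that none of the 6 was past 2-fold. PvZIP3 (Phvul.002G184200), annotated as IAR1, a gene known in A. thaliana for its part in the response to auxin conjugates, had 19.9 FPKM in Voyager and 19.4 FPKM in Albion. PvZIP14 (Phvul.008G079500) had 12.0 FPKM in Voyager and 11.3 FPKM in Albion, and PvZIP18 (Phvul.010G059200) had 2.28 FPKM in Voyager and 2.08 FPKM in Albion.

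Members that share an A. thaliana annotation with another ZIP gene were compared within pairs. For ZIP5, PvZIP12 is paired with PvZIP15 (Phvul.008G290500), which had 15.4 FPKM in Voyager and 8.22 FPKM in Albion, a log2 difference of 0.83 and within 2-fold. PvZIP15 was the more abundant gene of the pair in both genotypes, and both genes were higher in Voyager. PvZIP12 made up 33.9% of the pair in Voyager and 16.8% in Albion. The pair summed to 23.3 FPKM in Voyager and 9.88 FPKM in Albion, a plain ratio of 2.36.

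For ZIP11, PvZIP7 is paired with PvZIP10 (Phvul.006G055800), which had 20.7 FPKM in Voyager and 12.2 FPKM in Albion, a log2 difference of 0.72. PvZIP7 was the minor gene in both, at 7.04% of the pair in Voyager and 5.34% in Albion. As in the ZIP5 pair, both genes had the higher value in Voyager, and the pair summed to 22.3 FPKM in Voyager and 12.9 FPKM in Albion. The genes of the ZIP5 and ZIP11 pairs, PvZIP12, PvZIP15, PvZIP10 and PvZIP7, had the highest log2 differences among the 13 ZIP genes.

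The ZIP6 and ZTP29 pairs were split alike in both genotypes. PvZIP13 made up 25.7% of the ZIP6 pair in Voyager and 25.9% in Albion, and the level of PvZIP16 was 2.89 times that of PvZIP13 in Voyager and 2.86 times in Albion. For ZTP29, PvZIP9 made up 92.2% of the pair in Voyager and 92.9% in Albion, and its partner PvZIP19 (Phvul.011G058500) had 1.42 FPKM in Voyager and 1.41 FPKM in Albion. Reads from stretches shared by the genes of a pair can be divided between them by the abundance estimate, so the shares within pairs are uncertain to an unknown degree.

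**Figure D3:**
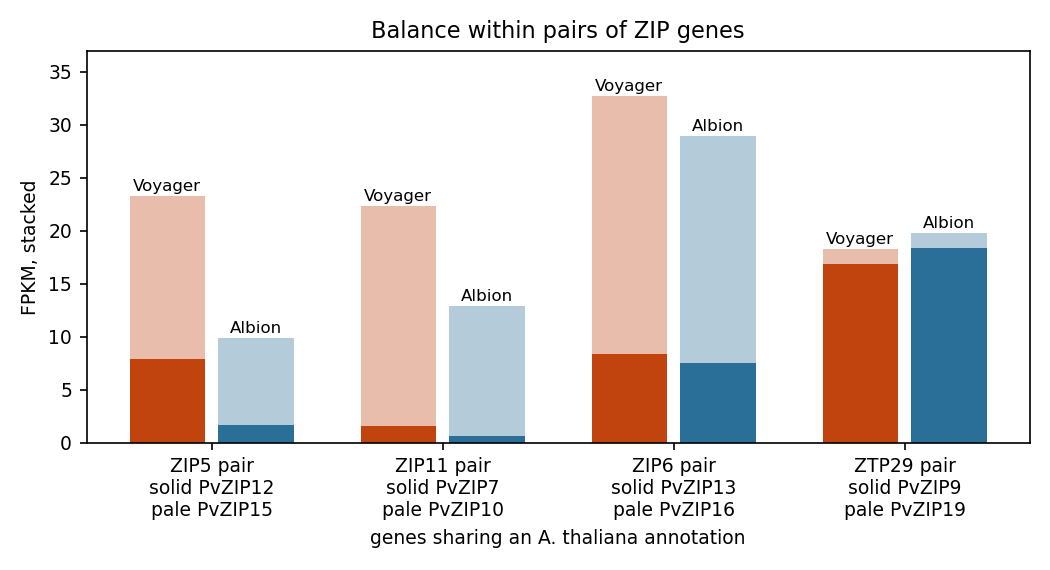
Stacked FPKM (vertical axis, linear from 0) of the 4 pairs of ZIP genes that share an A. thaliana annotation, with Voyager as the left column and Albion as the right column of each pair, the solid and pale parts being the genes named below. The ZIP5 column is 23.3 FPKM high in Voyager and 9.88 FPKM in Albion, and the solid PvZIP12 part is 33.9% of it in Voyager and 16.8% in Albion.

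Genes next to the members on their chromosomes were read for the same contrast. Before PvZIP12, at 42.8 kb, the clathrin adaptor gene Phvul.006G003200 had 29.2 FPKM in Voyager and 24.8 FPKM in Albion, a log2 difference of 0.22. After PvZIP12, at 145 kb, the unannotated gene Phvul.006G003500 had 0.74 FPKM in Voyager and 0.87 FPKM in Albion. Neither listed neighbour of PvZIP12 was past 2-fold. At 5.34 kb from PvZIP7, the RING finger gene Phvul.005G146100 had 7.44 FPKM in Voyager and 5.72 FPKM in Albion, and on its other side the hydrolase gene Phvul.005G145500 had 7.74 FPKM in Voyager and 8.49 FPKM in Albion.

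The nearest listed gene on either side of each other member was also within 2-fold. Beside PvZIP9, the unannotated gene Phvul.005G149700 had 16.0 FPKM in Voyager and 11.6 FPKM in Albion, and the glycosyltransferase gene Phvul.005G149900 had 15.8 FPKM in Voyager and 14.2 FPKM in Albion. Beside PvZIP16, BAG4 (Phvul.008G259000) had 1.35 FPKM in Voyager and 0.73 FPKM in Albion, and F2KP (Phvul.008G259400), an enzyme of sugar phosphate metabolism, had 8.28 FPKM in Voyager and 9.55 FPKM in Albion. The log2 differences beside PvZIP13 were 0.14 for ATL6 (Phvul.006G070100) and 0.40 for a pentatricopeptide repeat gene (Phvul.006G070300). Beside PvZIP1 they were 0.11 for GNC (Phvul.001G035600), a GATA transcription factor gene, and 0.12 for a small nuclear ribonucleoprotein gene (Phvul.001G036000). Beside PvZIP8 they were 0.05 for Phvul.005G048800, with a carbohydrate-binding domain, and -0.04 for Phvul.005G049000, of uncharacterized function. Farther out, within 100 kb of the 7 members, 91 genes were listed, of which 3.30% were at least 2-fold higher and 2.20% at least 2-fold lower in Voyager, beside 2.55% and 1.76% of all listed genes. They were an RNA polymerase subunit gene near PvZIP8 (Phvul.005G048600, a log2 difference of 1.08), PCNA2 (Phvul.005G148900, 1.07) and a protein kinase gene (Phvul.005G148800, -1.28) near PvZIP9, an unannotated gene near PvZIP13 (Phvul.006G069400, -1.52) and the asparagine synthase gene ASN1 near PvZIP16 (Phvul.008G259900, 1.22). None of those past 2-fold lay within 100 kb of PvZIP12, PvZIP7 or PvZIP1, whose windows held 3, 18 and 20 listed genes. With so few listed genes near PvZIP12, the lack of one past 2-fold there says little. The genes past 2-fold in the windows of the 7 members were named after their values were seen.

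Other genes of zinc and metal handling were taken by annotation words in lists that held 50 genes. Of these, 1 was at least 2-fold higher in Voyager and 2 at least 2-fold lower, or 2% and 4%, beside 2.55% and 1.76% of all listed genes. With 0.1 FPKM added in place of 1, an alternative chosen for these lists after seeing the data, 2 were higher and 3 lower, or 4% and 6%, beside 4.5% and 2.92% of all listed genes. The genes that joined were a cation efflux gene of the metal tolerance protein (MTP) list (Phvul.008G244200), with 2.61 FPKM in Voyager and 0.91 FPKM in Albion, and HMA5 (Phvul.002G156800), a heavy metal ATPase gene with 4.83 FPKM in Voyager and 10.6 FPKM in Albion. Like PvZIP7, they were under the limit on the FPKM + 1 scale, with log2 differences of 0.92 and -0.99. Another HMA5 gene of the list (Phvul.010G023900) had 3.02 FPKM in Voyager and 2.89 FPKM in Albion. A bZIP23 gene (Phvul.011G035700), annotated like the zinc sensor that switches on ZIP genes in A. thaliana, had 45.9 FPKM in Voyager and 41.3 FPKM in Albion, a log2 difference of 0.15. It was more abundant than each of the 13 ZIP genes of the table in both genotypes. The regulator list held only this gene, and another bZIP23 homologue named in the study was not analysed here.

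The 5 zinc induced facilitator (ZIF) genes are relatives of a vacuolar transporter that affects zinc handling in A. thaliana. Among them ZIFL2 (Phvul.002G108300) had 19.4 FPKM in Voyager and 0.82 FPKM in Albion, a log2 difference of 3.48, in the direction of PvZIP12 and larger. A ZIFL1 gene (Phvul.011G189900) had 8.11 FPKM in Voyager and 18.0 FPKM in Albion, a log2 difference of -1.06. The other ZIFL1 genes of the list were within 2-fold, with log2 differences of 0.73, 0.19 and -0.31. On the FPKM + 1 scale none of the 9 MTP genes, which carry metals out of the cytosol, was past 2-fold, and the most abundant, MTP11 (Phvul.008G015500), had 99.8 FPKM in Voyager and 97.2 FPKM in Albion. On that scale none of the 10 heavy metal ATPase (HMA) genes, which encode metal pumps, was past 2-fold, and HMA7 (Phvul.009G241800), a copper pump and the most abundant, had 35.5 FPKM in Voyager and 32.7 FPKM in Albion.

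The NRAMP list of 7 genes includes 2 EIN2 genes of ethylene signalling (Phvul.001G177500 and Phvul.007G150600). In it an NRAMP6 gene (Phvul.010G160800) had 0.49 FPKM in Voyager and 2.36 FPKM in Albion, a log2 difference of -1.17. Another NRAMP6 gene of the list (Phvul.009G127900) was higher in level, with 11.67 FPKM in Voyager and 14.05 FPKM in Albion, a log2 difference of -0.25. NRAMP3 (Phvul.002G014300), the most abundant gene of that list and a vacuolar metal transporter in A. thaliana, had 61.6 FPKM in Voyager and 60.9 FPKM in Albion. Among the 5 yellow stripe like (YSL) genes of the table, carriers of metals bound to nicotianamine, YSL6 (Phvul.001G088900) was the highest, at 64.9 FPKM in Voyager and 60.4 FPKM in Albion. None of the 5 YSL, 6 vacuolar iron transporter (VIT), 5 metallothionein and 2 plant cadmium resistance genes was past 2-fold. The highest VIT gene (Phvul.007G079100) had 37.7 FPKM in Voyager and 28.1 FPKM in Albion. Among the metallothioneins, small proteins that bind metal ions, Phvul.008G101800 was far above the 13 ZIP genes of the table, with 3989 FPKM in Voyager and 3262 FPKM in Albion. The lowest of the 5, Phvul.008G133400, had 32.4 FPKM in Voyager and 25.3 FPKM in Albion, not far above PvZIP16. Both plant cadmium resistance genes are annotated as PCR2. Of these, Phvul.002G318900 had 115 FPKM in Voyager and 148 FPKM in Albion, and Phvul.002G319100 had 24.9 FPKM in Voyager and 21.6 FPKM in Albion.

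**Figure D4:**
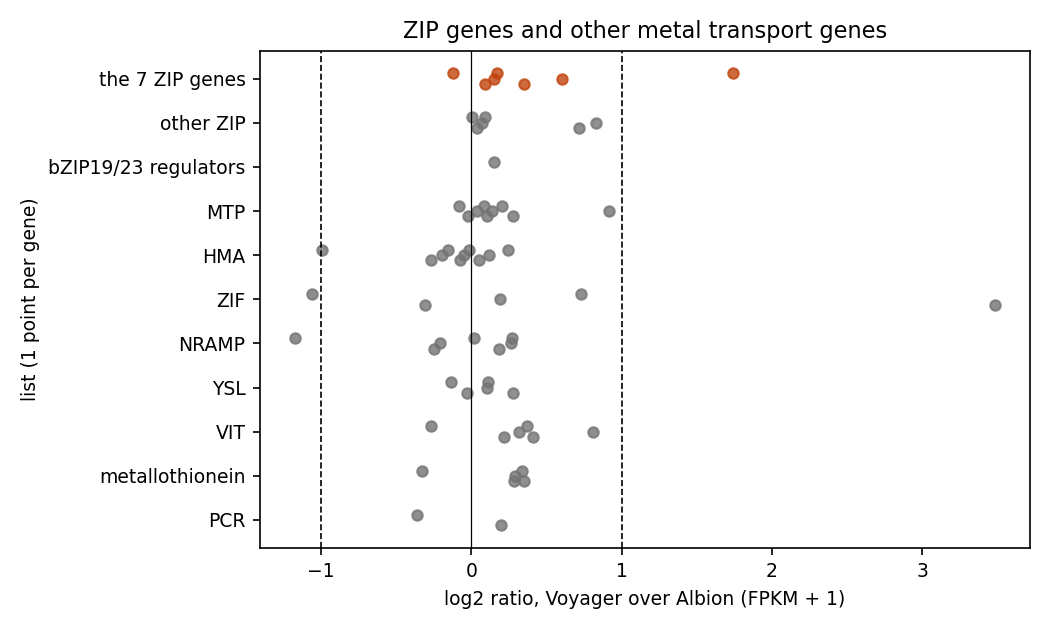
Log2 ratio of Voyager over Albion on the FPKM + 1 scale (horizontal axis) for each gene (1 point) of the 7 ZIP genes, the 6 other ZIP genes and the lists of metal handling genes, with dashed lines at 2-fold. Beyond the lines lie PvZIP12 at 1.74, ZIFL2 at 3.48, the ZIFL1 gene Phvul.011G189900 at -1.06 and the NRAMP6 gene Phvul.010G160800 at -1.17. Other genes of the symbols ZIFL1 and NRAMP6 lie within the lines.

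Since whole pods were ground, markers of their tissues are given beside these values. In bulk tissue, fewer cells of a type and less RNA per cell cannot be told apart. The 160 genes of the seed list, taken by annotation words, summed to 28765 FPKM in Voyager and 26554 FPKM in Albion. Their median log2 difference was 0.10, and the ratio of the sums was 1.08, beside 1.14 for all listed genes. The list includes genes of the bifunctional inhibitor, lipid-transfer protein and seed storage 2S albumin superfamily, an annotation not limited to seed storage proteins. In this superfamily 3 genes were listed at 0 in 1 genotype and below 1 FPKM in the other. Phvul.005G037300 and Phvul.009G217300 were at 0 in Albion, with 0.91 and 0.96 FPKM in Voyager. Phvul.009G210600 was at 0 in Voyager, with 0.84 FPKM in Albion. The embryo regulator ABI3 (Phvul.008G122100) had 36.2 FPKM in Voyager and 44.2 FPKM in Albion, FUS3 (Phvul.001G086800) had 5.99 FPKM in Voyager and 5.93 FPKM in Albion, and LEC1 (Phvul.006G057800) had 0.38 FPKM in Voyager and 1.71 FPKM in Albion. The 85 genes of the green pod wall list, for photosynthesis, summed to 21263 FPKM in Voyager and 23187 FPKM in Albion, with a median log2 difference of -0.05. Of these 85 genes, 7.06% were at least 2-fold lower and 2.35% at least 2-fold higher in Voyager, beside 1.76% and 2.55% of all listed genes, so photosynthesis genes past 2-fold were mostly lower in Voyager. In the seed list 3.12% were at least 2-fold higher and 0.625% at least 2-fold lower in Voyager. The 8 genes of the valve and dehiscence zone summed to 551 FPKM in Voyager and 531 FPKM in Albion, and the 25 phloem genes to 700 FPKM in Voyager and 637 FPKM in Albion. The ratios of these sums were 1.04 and 1.10, also below that of all listed genes. The median log2 differences of the valve and phloem genes were 0.12 and 0.20. Like the 0.10 of the seed list, they were above the 0.07 of all listed genes, so sums and medians differ in direction here. A sum can rest on few genes, and the highest single value of the table was 59911 FPKM in Voyager and 13480.5 FPKM in Albion. Genes of the seed and pod wall lists were thus present in both genotypes, and the part of pod make-up in the difference of PvZIP12 was not tested.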

How the data were processed

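Reads of 3 Voyager and 3 Albion pod samples were quality filtered by the authors with the FASTX-Toolkit and aligned to the P. vulgaris v1.0 genome with TopHat 1.4.1 on a Bowtie 0.12.7 index (versions as in the submitters' processing notes). The deposited FPKM values were estimated by the authors with Cufflinks 1.3.0 and Cuffdiff, as 1 pooled value per gene and genotype with 2 decimals. The table also holds the authors' fold changes, test statistics, p-values, q-values and calls, which were not used. Alignments and values per sample were not analysed here, and no test of the genotypes was run.

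Ranks, shares of sums and log2((Voyager + 1)/(Albion + 1)) were computed in Python 3.11 with numpy 2.4.6 and pandas 2.3.3. The code that calls 2-fold differences was checked by putting large known folds into Albion values of genes not at low FPKM. That check covers the arithmetic only, and not calls at low levels such as those of PvZIP7, PvZIP12 and PvZIP1 in Albion. The members and lists were chosen with earlier results of these data known. PvZIP names are the study's. Alternatives covered other pseudocounts, a fold of 1.5, 3 scalings, filters on FPKM, and shares without PvZIP16. Named genes were all members, the other ZIP genes, the nearest listed gene on either side of a member and the 3 genes nearest to PvZIP12 in level. In each metal list they were the gene of highest mean FPKM and any past 2-fold on either scale. Marker genes, EIN2 and some further genes sharing a symbol with a named metal gene were named to describe their lists. Protein and promoter sequences were not analysed here.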

Additional observations from a re-analysis of the deposited data

How the results depend on the processing

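The number of ZIP members at least 2-fold higher in Voyager was 1, and it was 2, through PvZIP7, with a pseudocount of 0.1 FPKM, with no pseudocount (chosen after seeing the data) or with a fold of 1.5. It was 1 under the 3 scalings. Scaled to the same summed FPKM, which treats the table sums of 950155 FPKM in Voyager and 830694 FPKM in Albion as equal, 3 of the 7 members were higher in Voyager and the log2 ratio of their summed FPKM was 0.064, against 0.26 as deposited. The log2 difference of PvZIP12 ran from 1.57 under that scaling to 2.25 with no pseudocount. The share of all listed genes at least 2-fold higher in Voyager was 4.5% with a pseudocount of 0.1 FPKM and 6.95% at a fold of 1.5, and the share at least 2-fold lower was 2.92% and 4.25%. Of 35 log2 differences of the members under these alternatives, 24 moved by less than 0.1. No paired analysis was possible because the table holds 1 pooled value per genotype, and for the same reason no sample could be left out. With a pseudocount of 0.1 FPKM, 2 of the 50 other metal genes were at least 2-fold higher and 3 at least 2-fold lower in Voyager, against 1 and 2 with a pseudocount of 1 FPKM. The differences computed here carry no replicate error, since only the pooled values were used.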
